A study of Mus musculus with 18 samples.

Results

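The 10 genes described here belong to the response of cells to low oxygen and to glycolysis. They were chosen by name from the annotation of the array's probe sets, with earlier results of these data known. They were Adm, Vegfa, Ndrg1, Ankrd37, Bnip3, Slc2a1, Hk2, Pgk1, Ldha and Pdk1, out of 18193 genes with a probe set, and 23 probe sets carried one of these symbols. RNA of mouse cells was measured on 18 one-colour Affymetrix arrays. Cells of mammary tumors 1, 2 and 7 were sorted by surface CD29 (the integrin beta1 chain) and CD24 into the populations CD29HCD24H, CD29HCD24L, CD29LCD24H and CD29LCD24L, where H stands for high and L for low, with n = 3 arrays each. The normal mammary epithelial cells of preparations 1 and 2 gave CD29HCD24P and CD29PCD24H populations (P for positive, n = 2 each), and preparation 2 also gave 1 CD24L array. The last array held a commercial reference RNA. The tumors are known from the study to come from mammary tissue without the tumor suppressor gene Trp53, transplanted into host mice, whose own stroma, vessels and leukocytes can enter a sorted population. The labels state no genotype, strain or age, and they name a transplant generation, the first, for tumors 1 and 2 only. The study is known to have placed the tumor-initiating cells in the CD29HCD24H gate.

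When oxygen is scarce, prolyl hydroxylases of the Egln family slow down, the alpha subunits of hypoxia-inducible factor (HIF, from Hif1a and Epas1) escape degradation through Vhl, pair with Arnt and switch on target genes. The targets let a cell take up more glucose, break it down to lactate, keep pyruvate out of the mitochondria and call in blood vessels. Solid tumors often hold poorly perfused regions, and glycolysis is often raised in them also with oxygen present.

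HIF binds DNA at a short core sequence, so the promoters of Adm, Bnip3 and Pgk1, 3 of the members that were higher together in the tumors, are shown as RefSeq gives them on build GRCm38.p6. Each line holds the 250 bases before the annotated start of the gene, 5′ to 3′ on the gene's strand, and capitals mark the cores ACGTG and GCGTG or their reverse complements CACGT and CACGC. The Adm promoter lies at chr7:110627407-110627656 (plus strand), that of Bnip3 at chr7:138909507-138909756 (minus strand) and that of Pgk1 at chrX:106186850-106187099 (plus strand).
Adm: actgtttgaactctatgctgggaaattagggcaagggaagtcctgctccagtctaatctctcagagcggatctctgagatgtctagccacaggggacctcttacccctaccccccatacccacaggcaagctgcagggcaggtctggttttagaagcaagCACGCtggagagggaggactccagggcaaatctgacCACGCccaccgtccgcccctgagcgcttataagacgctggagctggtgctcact
Bnip3: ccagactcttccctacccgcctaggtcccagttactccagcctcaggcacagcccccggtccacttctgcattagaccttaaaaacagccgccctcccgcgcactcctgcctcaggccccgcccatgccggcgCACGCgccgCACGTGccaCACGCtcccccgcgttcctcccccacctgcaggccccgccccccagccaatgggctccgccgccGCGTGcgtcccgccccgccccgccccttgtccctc
Pgk1: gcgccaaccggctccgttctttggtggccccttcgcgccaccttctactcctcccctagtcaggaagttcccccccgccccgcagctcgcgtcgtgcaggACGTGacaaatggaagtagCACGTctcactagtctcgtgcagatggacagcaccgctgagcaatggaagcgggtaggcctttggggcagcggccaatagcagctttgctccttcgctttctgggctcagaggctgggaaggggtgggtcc
Adm held 2 matches, both of GCGTG, at 90 and 54 bases before the start. Bnip3 held 5 matches, 2 of ACGTG that overlap as CACGTG on the opposite strands and 3 of GCGTG. Pgk1 held 2 of ACGTG, at 150 and 131 bases. RefSeq promoter entries were matched for 9 of the 10 members (all but Ndrg1), 12 entries in all, and 10 of these held at least 1 match. Over all 32851 promoter entries, 38.6% held either core in the same 250 bases, 16.6% ACGTG and 28.2% GCGTG. The Ldha entries held 5 matches and 1, those of Hk2 and Slc2a1 2 each, and that of Ankrd37 4. Of the Vegfa entries, that inside the gene held 2 and that at the gene's outer start held 0. The Pdk1 entries held 1 and, further inside the gene, 0. The Ldha and Ankrd37 entries also lay inside the span of the gene, not before its outer start. A match is a string of letters and does not show that the factor binds there.

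All levels below are the deposited signal in signal units, which are compared for the same gene only, and log2 differences were taken after 32 was added to each value. Every array had the same trimmed mean signal of 500, and the array medians lay between 71.6 and 104.2. The number of arrays limits the precision, and since the labels do not say that the normal preparations came from separate animals, a p-value here measures only how far these arrays scatter. The cells on the normal CD24L array went against their epithelial label: the summed signal of 9 fibroblast markers was 244308 there and that of 7 epithelial markers 1819. That array, a single sample, was compared with no group. It was in the fit of the normal populations as a group of its own, and so counted there in choosing probe sets and leaving out dim genes. The signal ratio of the 3′ to the 5′ actin control probe sets, a measure of how complete the amplified RNA is, lay between 14.4 and 99.3 on the tumor arrays, against 3.08 to 24.7 on the 4 other normal arrays.

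The first comparison set cells of the tumors against normal epithelium. Adm, Ndrg1, Ankrd37, Bnip3 and Pgk1 were higher in the tumors and no member was lower, so that 5 of 10 members passed the test. Among all 10916 genes tested, 4.27% were called higher and 7.18% in either direction. The mean over the populations of each tumor was compared with the mean over the populations of each preparation (3 tumors against 2 preparations, limma, Benjamini-Hochberg adjusted p under 0.05). The median log2 difference of the 10 members was 1.58, that of all genes tested 0.043. All 3 tumor means lay above both preparation means for 9 of 10 members, against 25.8% of all genes tested, and all 12 tumor arrays lay above all 4 normal arrays for 4 of 10 members, against 4.26%. At an unadjusted p under 0.05 the count was 8 of 10, where 26.7% of all genes had such a p. Since the members were chosen with earlier results of these data known, these shares describe the list and do not test it. For bulk RNA of sorted cells, more cells of a type that expresses a gene and more RNA per cell cannot be told apart. In the values that follow, the 12 tumor arrays are given by their lowest, median and highest signal, and the normal arrays in the order CD29HCD24P of preparations 1 and 2 and CD29PCD24H of preparations 1 and 2.

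Among the secreted products, Adm encodes adrenomedullin, a peptide that widens vessels and acts on endothelial cells. Adm had a signal of 1183, 7803 and 18716.5 on tumor arrays, against 1083, 758, 590.0 and 782 on normal arrays. Every tumor array lay above every normal array, and the log2 difference was 3.05 ± 0.34 (SE, adjusted p = 0.00722 by limma), or 8.26-fold. That probe set, like those used for Ndrg1 and Pgk1, carries the suffix _x_at, which marks probes that can match other transcripts too. The second Adm probe set read between 17.6 and 490 on tumor arrays, against 139, 182, 63.9 and 75.9 on normal arrays, and the groups overlapped. Its log2 difference was 0.52 ± 0.27 (SE, adjusted p = 0.262 by limma over probe sets), so the size of the Adm difference rests on the first probe set. Vegfa encodes the vascular endothelial growth factor that drives vessel sprouting. It read 774, 2008 and 4090.3 on tumor arrays, against 1238, 1133, 481 and 1117 on normal arrays. All but 2 tumor arrays were above the highest normal array, and the difference of 1.07 ± 0.34 did not pass (SE, adjusted p = 0.106 by limma).

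**Figure D1:**
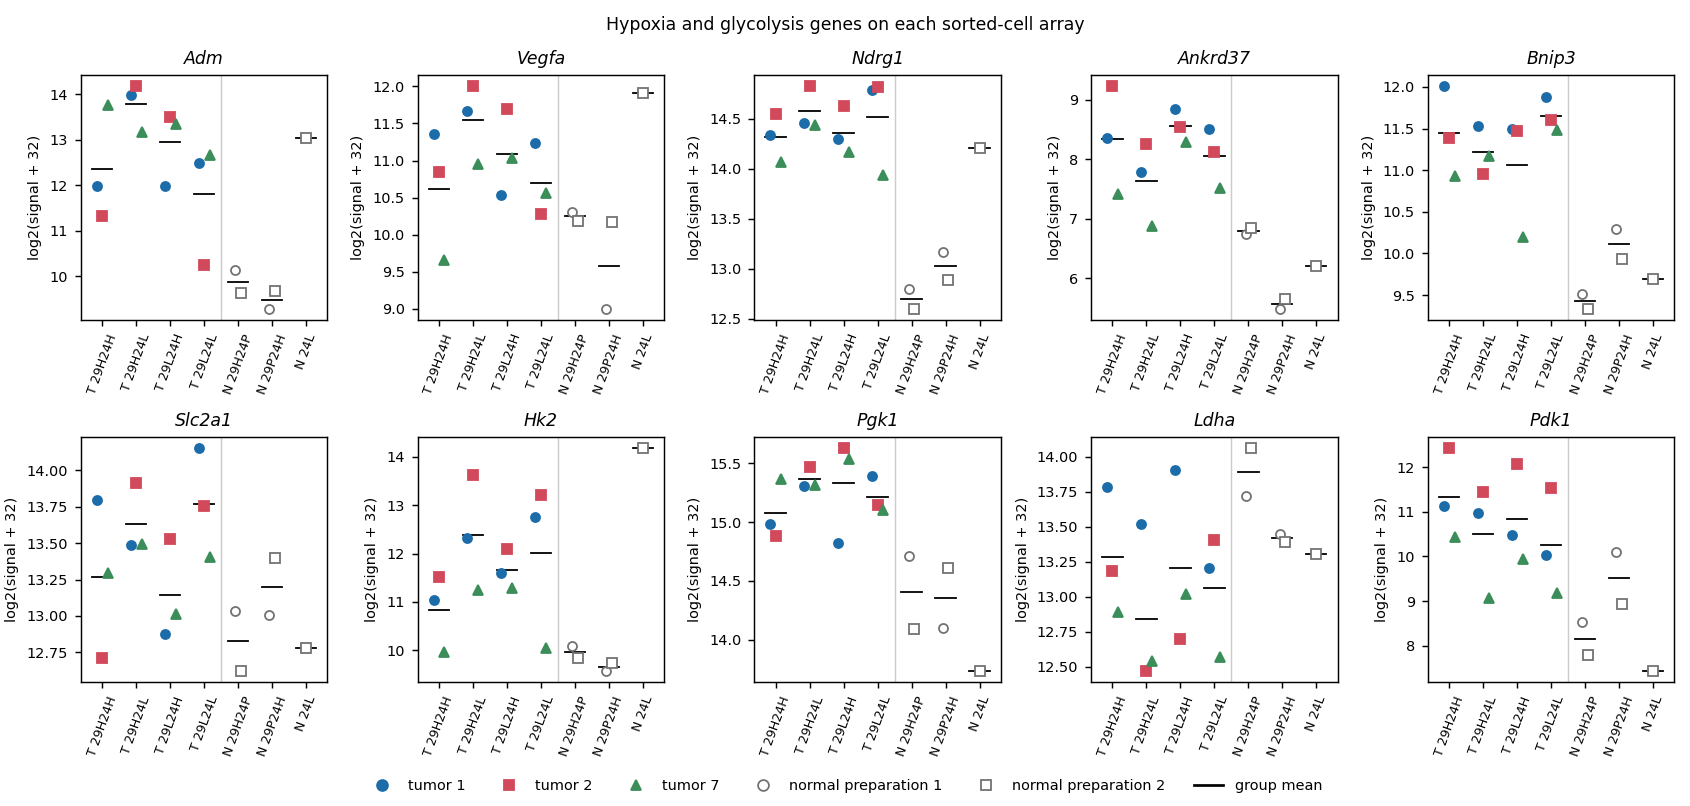
Signal of each gene on the 17 sorted-cell arrays, as log2(signal + 32) on the vertical axis, by sorted population (T for tumor, N for normal, then the CD29 and CD24 gates). Symbols mark the tumor or preparation and bars the group mean; Adm, Ndrg1, Pgk1 and Ankrd37 on the tumor arrays sit above the 4 normal arrays left of the CD24L array, and Ldha does not.

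The next members act inside stressed cells. Ndrg1, a stress-induced gene whose product is linked to growth arrest and trafficking, had 15651, 22321 and 29149.5 signal units on tumor arrays, against 7085, 6181, 9195 and 7559.8 on normal arrays. There was no overlap, and the difference was 1.58 ± 0.23 (SE, adjusted p = 0.0155 by limma). Its 5 probe sets gave differences between 0.94 and 1.80, and 3 of them passed. Ankrd37, a small ankyrin-repeat protein known as a HIF target, was dim throughout, with 85.4, 277.6 and 570 on tumor arrays, against 74.6, 82.1, 12.9 and 18.1 on normal arrays. Its tumor arrays still stood above every normal array, the lowest by a few units, and the difference was 1.97 ± 0.37 (SE, adjusted p = 0.0280 by limma). Ankrd37 came into this test by its mean over tumor and normal arrays together. Among the normal arrays alone it was too dim to be tested. It is nevertheless counted among the 5 members called and the 4 without overlap. Bnip3, a mitochondrial protein that marks mitochondria for autophagy in hypoxia, read 1144, 2816 and 4105 on tumor arrays, against 698, 615, 1224 and 942 on normal arrays. The CD29LCD24H array of tumor 7 was the lone tumor array under the highest normal array, and the difference was 1.58 ± 0.33 (SE, adjusted p = 0.0378 by limma).

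In glucose uptake and glycolysis, 1 of 4 members passed. Pgk1, the phosphoglycerate kinase that makes ATP in glycolysis, had 28969, 40630.2 and 50755.5 signal units on tumor arrays, against 26872, 17449.5, 17547 and 24968 on normal arrays. All tumor arrays were above all normal arrays by a small step, with a difference of 0.87 ± 0.16 (SE, adjusted p = 0.0253 by limma). Its 3 probe sets differed by 0.80 to 0.87. Hk2, the hexokinase that traps glucose in the cell, spread widely over the tumor arrays at 970.2, 2981 and 12510.4, against 1058, 890.3, 730.3 and 826 on normal arrays. Of the 12 tumor arrays 10 were above the highest normal array, and the difference of 1.91 ± 0.55 did not pass (SE, adjusted p = 0.0812 by limma). Slc2a1, the glucose transporter GLUT1, had 6672, 11468 and 18192 in tumors, against 8363, 6277, 8178 and 10752 in normal cells, with overlap and a difference of 0.44 ± 0.21 (SE, adjusted p = 0.235 by limma). Ldha, the lactate dehydrogenase subunit that turns pyruvate into lactate, was the single member with a negative difference. It read 5650, 8777 and 15312 on tumor arrays, against 13459, 17093, 11137 and 10729 on normal arrays, and no tumor array exceeded the highest normal one. The groups overlapped and the difference of −0.56 ± 0.30 did not pass (SE, adjusted p = 0.273 by limma).

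Pdk1, the kinase that blocks pyruvate dehydrogenase and so the entry of pyruvate into the mitochondria, read 508, 1688 and 5481 on tumor arrays, against 336, 188, 1059 and 460.0 on normal arrays. Here 8 of 12 tumor arrays were above the highest normal array, and the difference of 1.89 ± 0.64 did not pass (SE, adjusted p = 0.117 by limma). When each probe set was tested by itself, 7 of the 22 probe sets of the members that were tested passed, all higher in tumors and in the same 5 genes, against 6.72% of 20967 probe sets.

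**Figure D2:**
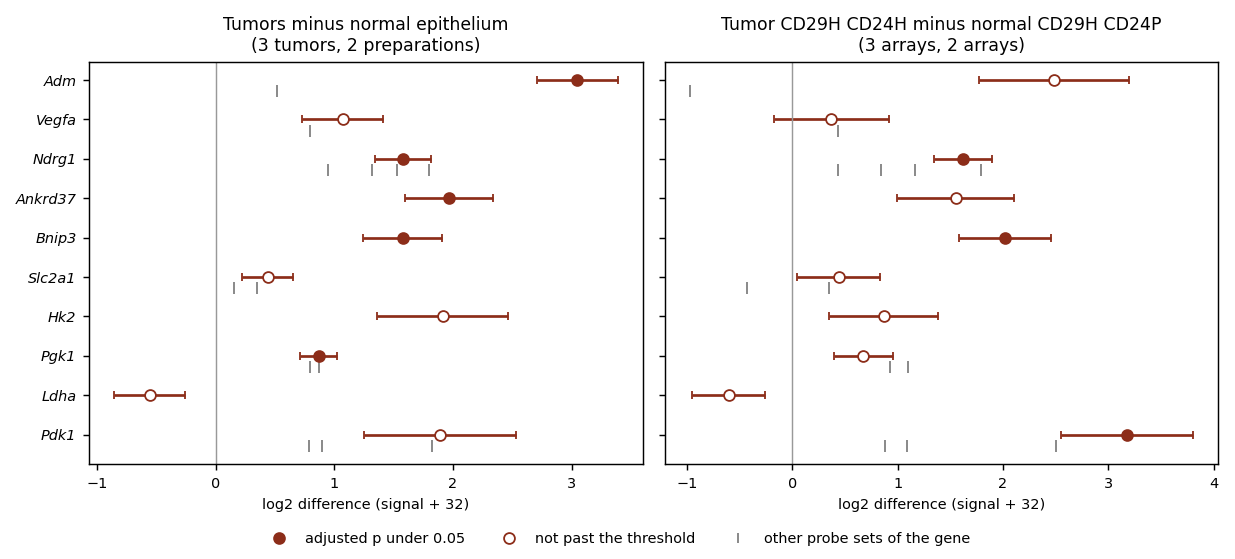
Log2 difference of each member (horizontal axis) for tumors minus normal epithelium on the left and for tumor CD29HCD24H minus normal CD29HCD24P cells on the right; circles with bars are the estimate ± SE, filled where the adjusted p was under 0.05, and grey ticks are the other probe sets of the gene. Ldha lies left of 0 in both panels, and the second Adm probe set lies far from the first.

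Other genes of the pathway changed unevenly. Of 29 other hypoxia-response genes tested, 7 were higher in tumors and 1 was lower. The 4 with the smallest p were Lox, a collagen cross-linking enzyme (5.32 ± 0.40), Ero1a, an oxidase of protein folding (3.74 ± 0.38), Ddit4, an inhibitor of mTOR signalling (4.15 ± 0.45), and Ccng2, an unconventional cyclin (1.64 ± 0.25), as log2 differences with SE and adjusted p by limma from 0.00396 to 0.0157. The lower gene, named after its value was seen, was the cytokine Mif (−1.80 ± 0.36, adjusted p = 0.0315 by limma). Of 16 other glycolysis genes tested, 0 passed by limma in either direction, 5 had an unadjusted p under 0.05 and 13 had a positive difference. Of 10 genes of the HIF machinery, 1 was higher, the HIF partner Arnt2 (1.61 ± 0.32, adjusted p = 0.0312 by limma), and 8 had a positive difference. The next by p did not pass: Hif3a at 1.32 ± 0.38, Arnt at 0.96 ± 0.28 and Hif1a at −0.75 ± 0.23 (adjusted p from 0.0787 to 0.0935 by limma). Of 9 genes of pyruvate dehydrogenase and its regulators, 0 passed by limma and 0 had an unadjusted p under 0.05. Among 8 genes of VEGF and adrenomedullin receptors and related proteins, the VEGF receptors and co-receptor Flt1, Kdr and Nrp1 were higher (1.54, 1.48 and 1.87, adjusted p from 0.0382 to 0.0487 by limma). Ramp1, which pairs with the calcitonin receptor-like receptor Calcrl, was lower (−3.18 ± 0.29, adjusted p = 0.00602 by limma). The rest of the list, Nrp2 (1.13), Calcrl itself (1.60), Ramp2 (0.80) and Ramp3 (−0.07), did not pass (adjusted p from 0.0863 to 0.921 by limma).

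Markers of other cell types moved with the comparison. Of 9 fibroblast markers 8 were called higher in tumors, with a summed signal of 10194 to 201228 on tumor arrays, against 9222 to 12444 on normal arrays. Of 9 macrophage markers 5 were called higher, with sums of 10009 to 64456 on tumor arrays, against 2652 to 14017 on normal arrays. Endothelial markers summed to 408 to 5259 on tumor arrays, against 484 to 791 on normal arrays, and 0 of the 3 tested passed by limma, with 2 at an unadjusted p under 0.05. Epithelial markers summed to 19395 to 101975 on tumor arrays, against 75842 to 149779, and 1 of 7 was called lower. Adipocyte markers summed to 750.1 to 8380.0 on tumor arrays, against 61.2 to 92.9 on normal arrays, with no overlap, and the 1 marker tested, Fabp4, was higher by 4.35 ± 0.45 (SE, adjusted p = 0.00676 by limma). Lymphocyte markers summed to 243 to 8842 on tumor arrays, against 271 to 939, and 0 of the 2 tested passed by limma, with 1 at an unadjusted p under 0.05. Without the 3 CD29HCD24L arrays, where fibroblast markers were highest, 3 of 10 members passed (3.44% of all genes): Adm (2.69), Ndrg1 (1.53) and Ankrd37 (2.14), with Bnip3 at 1.62 and Pgk1 at 0.83. The part of these cells in the differences was not tested beyond that.

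The count rested on few units. With either normal preparation left out, 0 of 10 members and 0 of all genes passed by limma, though 7 members had an unadjusted p under 0.05 both times; without tumor 1 the count was 3 (3.22% of all genes) and without tumor 7 it was 8 (14.1%). Without tumor 2 the count was 4 (7.56% of all genes). Shifting each array to the same median moved the median of all genes by −0.21 and left 3 members past the threshold, where 9.27% of all genes passed, against 7.18% before. The shift turned the share of higher genes among all calls to 36.3% from 59.4%, and the signs of the members stayed. With the actin ratio as a covariate 0 of 10 members and 0 genes passed by limma, 2 members had an unadjusted p under 0.05, and the difference of Adm was 2.53, of Ndrg1 1.61, of Ankrd37 2.52, of Bnip3 1.14 and of Pgk1 0.89.

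Tumor CD29HCD24H against normal CD29HCD24P compared the like gates and shares arrays with the comparison above. Pdk1, Bnip3 and Ndrg1 were higher in the tumor cells, 3 of 10 members, against 2.42% of genes called higher and 5.29% in either direction (6 of 10 members and 24.8% of genes at an unadjusted p under 0.05). The median difference of the members was 1.21, that of all genes 0.028. Pdk1 had 2211, 5481 and 1346 in CD29HCD24H cells of tumors 1, 2 and 7, against 336 and 188 in normal CD29HCD24P cells. Every tumor array was above both normal arrays, with a difference of 3.18 ± 0.63 (SE, adjusted p = 0.0380 by limma), or 9.04-fold. Its 4 probe sets gave 0.87 to 3.18. Bnip3 had 4105, 2646 and 1918 in tumor cells, against 698 and 615 in normal cells, again with no overlap and a difference of 2.02 ± 0.43 (SE, adjusted p = 0.0464 by limma). Ndrg1 had 20634, 23972 and 17171 in tumor cells, against 7085 and 6181 in normal cells, and differed by 1.62 ± 0.28 (SE, adjusted p = 0.0242 by limma).

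The remaining members did not pass. Adm had 3996, 2524 and 13991 in tumor CD29HCD24H cells, against 1083 and 758 in normal CD29HCD24P cells, with the tumor 7 array far above the others. Its difference was 2.48 ± 0.71 (SE, adjusted p = 0.0921 by limma), and its second probe set gave −0.97 ± 0.53. Ankrd37 differed by 1.55 ± 0.55, Hk2 by 0.87 ± 0.52, Pgk1 by 0.67 ± 0.28, Slc2a1 by 0.44 ± 0.39, Vegfa by 0.37 ± 0.54 and Ldha by −0.60 ± 0.35 (SE, adjusted p from 0.146 to 0.711 by limma). Of 15 other glycolysis genes 0 passed by limma, with 2 at an unadjusted p under 0.05. Among the other lists, 5 of 29 other hypoxia-response genes were higher and 1 was lower: Ddit4 (4.32), Ccng2 (2.40), Ero1a (3.95) and Anxa2 (1.51) had the smallest p (adjusted p from 0.00853 to 0.0178 by limma). The lower gene was Angptl4 (−2.68), a lipoprotein lipase inhibitor named here after its value was seen (adjusted p = 0.0456 by limma). Epas1, the second HIF alpha subunit, was lower (−2.18 ± 0.47, adjusted p = 0.0461 by limma), and so was Pdk4, a sister kinase of Pdk1 (−1.68 ± 0.34, adjusted p = 0.0399 by limma).

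No member passed without the CD29HCD24H array of tumor 1, where 2.82% of all genes did (5 members at an unadjusted p under 0.05 by limma). Without the CD29HCD24H array of tumor 7, 5 members passed, where 13.5% of all genes did. Leaving out either normal array left 1 array in that group, and 9 of 10 members then had a positive difference. With no filter on dim genes the count was 1 (Ndrg1, where 2.11% of all genes passed), with the mean of a gene's probe sets 1 (Bnip3, where 4.2% did). The median shift left 2 (Ndrg1 and Pdk1, with Bnip3 at an adjusted p of 0.0578 by limma), where 5.73% of all genes passed. It moved the median of all genes by −0.15 and turned the share of higher calls to 33.2% from 45.8%. Here too 4 of 9 fibroblast markers were higher in the tumor cells, with sums of 16055 to 43941 on tumor arrays, against 10018 and 10949.5 on normal arrays. Macrophage markers summed to 11091 to 22781 on tumor arrays, against 2652 and 2818, with 1 of 9 called higher, and adipocyte markers to 1057 to 1424, against 78.1 and 92.9, with the 1 tested marker, Fabp4, called higher. The actin ratio was 23.2 to 72.5 on tumor arrays, against 3.08 and 7.09 on normal arrays, and the part of these cells and of the actin ratio in the result was not tested.

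Within the tumors, the question was whether the tumor-initiating gate or either surface marker went with these genes. None of the 10 members passed in CD29HCD24H against the other 3 populations together (0% of all genes called), against CD29HCD24L (2.17%), against CD29LCD24H (0%) or against CD29LCD24L (0.0366%). The count was also 0 for CD29 high against low (0%), CD24 high against low (0.733%) and their interaction (0%), all by limma. At an unadjusted p under 0.05 the count was 1 of 10, Adm in the interaction, where 5.92% of all genes had such a p, and 0 in the other 6 comparisons (6.95%, 8.49%, 2.63%, 6.19%, 6.46% and 7.79% of all genes, in the order just given). With the tumor as a block, which the pairing of arrays allows, the count was 1 of 10 against CD29HCD24L, described next, and 0 of 10 in the others, where 0.779% (other populations together), 0.00916% (CD29LCD24H), 0.531% (CD29LCD24L), 0.879% (CD29), 3.85% (CD24) and 1.93% (interaction) of all genes passed. The median differences of the members lay between −0.27 and 0.046 over these comparisons. Shifting each array to the same median moved the median of all genes by 0.14 against CD29LCD24H and by 0.12 for CD29, where 8 instead of 4 members were then positive.

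Hk2 had the lowest value in CD29HCD24H cells in each tumor. Its signal in tumors 1, 2 and 7 was 2057, 2880.2 and 970.2 in CD29HCD24H cells, against 5057, 12510.4 and 2406 in CD29HCD24L cells. The CD29LCD24H cells had 3082, 4363 and 2471 and the CD29LCD24L cells 6902, 9493 and 1028. Against CD29HCD24L cells the difference was −1.56 ± 0.78 (SE, adjusted p = 0.648 by limma) and negative in each tumor (−1.28, −2.11 and −1.28). With the tumor as a block its SE was 0.39 and the adjusted p = 0.0316 by limma, so that 1 of 10 members passed, where 4.93% of all genes did. Leaving out each tumor array in turn, the blocked adjusted p lay between 0.00636 and 0.190, under the threshold in 6 of 12 cases; it was lost without any of the 6 CD29HCD24H and CD29HCD24L arrays. The CD29HCD24L arrays also carried the fibroblast marker signal, 159300 to 201228, against 16055 to 43941 on CD29HCD24H arrays, and 6 of 9 fibroblast markers were lower in CD29HCD24H cells without the block and 9 of 9 with it. Endothelial markers summed to 1991 to 5259 on CD29HCD24L arrays, against 408 to 970 on CD29HCD24H arrays. The part of such cells in the Hk2 values was not tested. Against the other populations together Hk2 did not pass with the tumor as a block (−1.19, adjusted p = 0.0852 by limma). How many of all genes had their lowest or highest value in CD29HCD24H cells in each tumor was not counted. On the normal CD24L array, with its fibroblast markers at 244308 and its endothelial markers at 10602, Hk2 stood at 18597.

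Pdk1 ran the other way. It had its highest value of each tumor in CD29HCD24H cells, with 2211, 5481 and 1346 in tumors 1, 2 and 7, against 1983, 2762 and 508 in CD29HCD24L, 1393, 4241 and 952 in CD29LCD24H and 1020.4, 2906 and 547 in CD29LCD24L cells. The distance between tumors was larger than that between populations, and the difference from the other populations together was 0.80 ± 0.65 (SE, adjusted p = 0.919 by limma). With the tumor as a block the SE of this Pdk1 difference was 0.25 and the adjusted p = 0.118 by limma, still not past the threshold. Adm showed no shared order. In CD29HCD24H cells it had 3996, 2524 and 13991 in tumors 1, 2 and 7, in CD29HCD24L 16128, 18716.5 and 9162, in CD29LCD24H 4022, 11582 and 10376, and in CD29LCD24L 5705, 1183 and 6444. The CD24 effect within CD29 high cells minus that within CD29 low cells was −2.57 ± 1.02 for Adm (SE, unadjusted p = 0.0268, adjusted p = 0.666 by limma) and −1.32 ± 0.70 for Vegfa (SE, adjusted p = 0.940 by limma), neither past the threshold. With the tumor as a block the adjusted p by limma was 0.178 for Adm and 0.328 for Vegfa, again not past it.

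**Figure D3:**
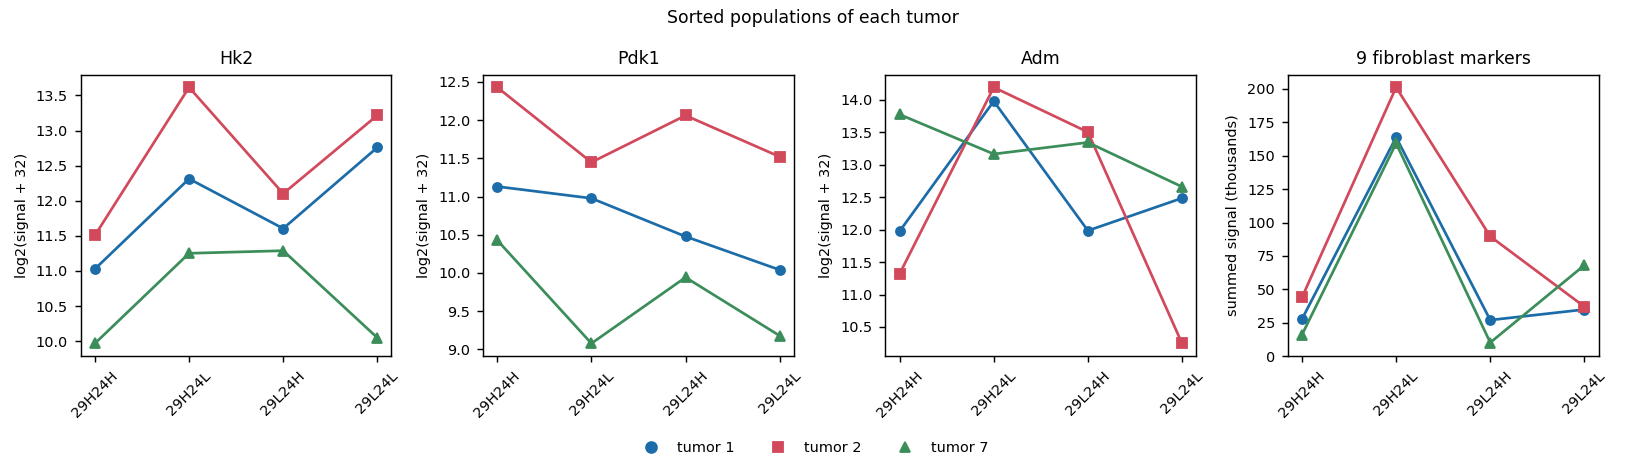
Levels in the sorted populations of each tumor as log2(signal + 32) for Hk2, Pdk1 and Adm, and the summed signal of 9 fibroblast markers on a linear axis. Each line joins the 4 populations of a tumor: CD29HCD24H is lowest for Hk2 and highest for Pdk1 in each tumor, and the marker sum peaks in CD29HCD24L. How many of all genes share such an order was not counted.

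The members were also compared between the tumors of origin. With the population as a term, 4 of 10 members differed among the 3 tumors by limma's F-test, against 36.8% of all genes, so the share was near the background. Pdk1 lay between 2762 and 5481 on the 4 arrays of tumor 2, between 1020.4 and 2211 in tumor 1 and between 508 and 1346 in tumor 7, so that tumor 2 stood above the others without overlap. Its tumor means spread over 2.21 on the log2 scale (adjusted p = 7.65e-05 by limma), and the tumor took 78.8% of its variance over the 12 arrays, against a median of 38.5% for all genes. Hk2 lay between 2880.2 and 12510.4 in tumor 2, 2057 and 6902 in tumor 1 and 970.2 and 2471 in tumor 7 (spread 1.97, adjusted p = 0.00150 by limma). Tumor 2 had no overlap with tumor 7, and tumor 1 overlapped both.

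Ldha and Ankrd37 passed closer to the threshold. Ldha was highest in tumor 1, at 9424 to 15312, against 5650 to 10816 in tumor 2 and 5919 to 8289 in tumor 7 (spread 0.85, adjusted p = 0.0255 by limma). Ankrd37 was lowest in tumor 7, at 85.4 to 281, with 188 to 425 in tumor 1 and 247 to 570 in tumor 2 (spread 1.01, adjusted p = 0.0262 by limma). Without the CD29HCD24H or the CD29LCD24L array of tumor 7 the count was 2 of 10 (30.9% and 32.1% of all genes). Tumor 7 had the lowest mean for 8 of 10 members and the highest for the other 2, Adm and Pgk1. How many of all genes had their lowest mean in tumor 7 was not counted, so this is no trait of the members. These values describe 3 tumors and not kinds of tumor.

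**Figure D4:**
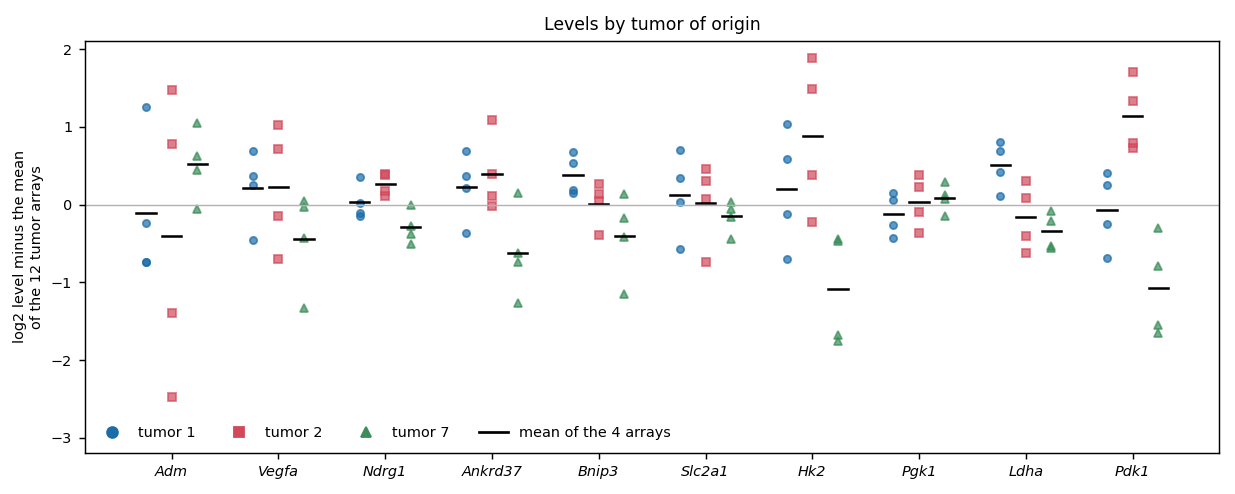
Log2 level of each member on the 12 tumor arrays minus the mean of those arrays, by tumor of origin. Points are arrays and bars the mean of the 4 arrays of a tumor. For Pdk1 tumor 2 lies above the others. Tumor 7 has the lowest mean for 8 members, a count that was not set against all genes.

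In normal epithelium, CD29HCD24P against CD29PCD24H compared the 2 epithelial gates. Pdk1 was lower in CD29HCD24P cells, as 1 of 9 members tested, where 28.9% of all genes were called and 14.6% were lower. It had 336 and 188 in CD29HCD24P cells of preparations 1 and 2, against 1059 and 460.0 in CD29PCD24H cells. There was no overlap, and the difference was −1.36 ± 0.41 (SE, adjusted p = 0.0321 by limma), negative in both preparations (−1.57 and −1.16). Other kinases of pyruvate dehydrogenase had the opposite sign: Pdk4 was higher in CD29HCD24P cells by 4.31 ± 0.26 and Pdk3 by 1.63 ± 0.28 (SE, adjusted p = 3.57e-06 and 0.00186 by limma).

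Bnip3 had 698 and 615 in CD29HCD24P cells, against 1224 and 942 in CD29PCD24H cells, and its difference of −0.69 ± 0.26 did not pass (SE, adjusted p = 0.0797 by limma). Ldha had 13459 and 17093, against 11137 and 10729, with no overlap and a difference of 0.47 ± 0.20 (SE, adjusted p = 0.114 by limma). Ankrd37 was too dim to be tested here, at 74.6 and 82.1 in CD29HCD24P cells, against 12.9 and 18.1 in CD29PCD24H cells. The other differences were 0.66 for Vegfa, 0.40 for Adm, 0.31 for Hk2, 0.049 for Pgk1, −0.33 for Ndrg1 and −0.37 for Slc2a1, with adjusted p from 0.209 to 0.911 by limma.

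In this comparison 14.3% of all genes were called higher in CD29HCD24P cells and 14.6% lower. Of 14 other glycolysis genes tested, 7 were higher and 3 lower in CD29HCD24P cells. The lactate transporter Slc16a1 (3.10) and the glucose transporter Slc2a3 (2.46) were among the higher, the aldolase Aldoc (−2.70) and the regulator Pfkfb3 (−2.03) among the lower (adjusted p from 1.98e-05 to 0.000411 by limma). Of 29 other hypoxia-response genes, 9 were higher and 4 lower, with Tmem45a (4.46), Plod2 (2.86) and Ak4 (2.70) higher and Stc2 (−4.83) lower (adjusted p from 1.64e-06 to 0.000113 by limma). Epas1 (2.08) and Arnt2 (1.36) of the HIF machinery were higher as well (adjusted p = 0.000108 and 0.00748 by limma). Without the CD29HCD24P array of preparation 2 no member passed (17.5% of all genes, Pdk1 adjusted p = 0.175 by limma, 1 member at an unadjusted p under 0.05), without the CD29PCD24H array of preparation 2 the count was 4 (44.9% of all genes), and with no filter on dim genes the adjusted p of Pdk1 was 0.103 by limma.

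Over all replicated populations, the order of the mean levels put both normal populations last for 8 of 10 members, the exceptions being Slc2a1 and Ldha. This order uses the arrays of the first comparison again, and how many of all genes share it was not counted. For Adm the order was CD29HCD24L, CD29LCD24H, CD29HCD24H and CD29LCD24L of the tumors, then normal CD29HCD24P and CD29PCD24H, and of its 5 neighbouring pairs 4 overlapped in range. For Ldha normal CD29HCD24P came first and normal CD29PCD24H second, with 4 of 5 neighbouring pairs overlapping. Slc2a1 overlapped at each of the 5 steps, and normal CD29PCD24H cells stood above tumor CD29LCD24H cells. Between 3 and 5 neighbouring pairs overlapped for each member. These are ranges of few arrays that leave the pairing by tumor aside, so an overlap does not show that neighbours were alike.

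The normal CD24L array, a sample with no replicate and with fibroblast markers, did not follow the other normal arrays. Its endothelial markers summed to 10602, against 484 to 791 on the other normal arrays. Adipocyte markers summed to 5288, against 61.2 to 92.9, and lymphocyte markers to 3183, against 271 to 939. Macrophage markers, at 5103, lay within the range of 2652 to 14017. Adm was 8452 there, against 590.0 to 1083 on the 4 other normal arrays, Vegfa 3806, against 481 to 1238, and Ndrg1 18872, against 6181 to 9195. Pgk1 (13605), Pdk1 (142) and Ldha (10073) were below all 4 of them, while Bnip3 (795), Slc2a1 (7003) and Ankrd37 (41.8) lay within their range. These values were not tested.

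Pairs of members differed in how far their levels went together. Over the 17 sorted-cell arrays 36 of the 45 pairs of members had a positive Pearson correlation of log2 levels (median 0.43, from −0.62 for Adm and Ldha to 0.79 for Ndrg1 and Bnip3), and over the 12 tumor arrays 31 of 45 (median 0.24, from −0.61 for Pgk1 and Ldha to 0.93 for Ndrg1 and Hk2). Against the mean of the standardised members, which includes the gene itself, Ndrg1 had r = 0.93 and Ldha −0.35 over 17 arrays. The genes outside the list whose levels were most like that mean over the 17 arrays were Pim1 (r = 0.94), Cd93 (0.93), Ednrb (0.92), Vangl2 (0.92) and Msr1 (0.92). Over the 12 tumor arrays they were Pim1 (0.93), BC004004 (0.93), Ets1 (0.91), Stx11 (0.91) and Egr3 (0.90). Arrays of a tumor share its cells, and the tumor and normal arrays fall apart, so these are descriptions only. Pairs of other genes were not counted on these arrays, so the counts of positive pairs have no background beside them.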

How the data were processed

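RNA of sorted mouse mammary cells and of a reference RNA was measured on 18 Affymetrix arrays, after two-cycle T7 amplification per the labels' protocols. The values are linear signal intensity computed by the authors with GCOS, per the submitters' processing notes. The design text says that reference RNA served for normalization without saying how; the deposited values are not ratios. Every array had a trimmed mean of 500 after 2% was cut from each end, so no further scaling was done. Groups came from the sample titles.

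Of 45101 probe sets, 34945 had 1 gene symbol, 932 several and 9160 none, and 64 were controls. Each gene was represented by its brightest probe set on the arrays of a comparison, by mean, and the dimmest 40% of genes were not tested. On log2(intensity + 32), computed here from the deposited intensity, limma 3.58.1 (R 4.3.3, moderated by lmFit and eBayes with an intensity trend) tested 10916 genes with Benjamini-Hochberg adjustment. Tumors were compared with normal epithelium over 3 tumor means and 2 preparation means. Populations were compared without a block in the main design. Tumor numbers mark a shared tumor: deviations of arrays from their group means correlated at 0.389 to 0.728 within tumors (18 pairs) and at −0.458 to −0.0526 between them (36 pairs), so blocked values stand beside members' results they change. No 2 arrays were duplicates (highest r = 0.982). On simulated data, a log2 change of 1 was recovered for 19% of changed genes in tumors against normal epithelium. The share was 1.82% for CD29HCD24H against CD29HCD24P, 5.48% against CD29HCD24L and 25.8% in normal cells. At a log2 change of 2 the shares were 100%, 37.3%, 62.9% and 98.6%. The simulated noise was independent between arrays, without the correlation within tumors, so recovery in the real data can differ.

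Members and gene lists were chosen with earlier results of these data known. Other list genes named are up to 4 per list with the smallest p unless said otherwise, and likeness is the 5 genes with the highest Pearson r to the members' mean. Alternatives were offsets of 1 and 128, a 60% filter and none, median and quantile scaling, the mean of probe sets, no intensity trend, the tumor block, the actin ratio as covariate, and each array left out in turn. The CD24L and reference arrays, with 1 sample each, were compared with no group. The reference array was in no fit. The CD24L array was a group of its own in the fit of the normal populations, where it counted in the choice of probe sets and in the filter. Promoter sequences came from RefSeq.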

Additional observations from a re-analysis of the deposited data

Results flagged for a closer look

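Arrays that were compared with no group held the highest values of some members. On the reference RNA array, which has no replicate, Ldha read 20376, against at most 17093 on the 17 sorted-cell arrays, and Bnip3 10720.2, against at most 4105. Pdk1 read 8383 there, against at most 5481, and Ankrd37 1788, against at most 569.6. On the normal CD24L array, also a single sample, Hk2 read 18597, against at most 12510.4 on the 16 other sorted-cell arrays.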

How the results depend on the processing

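The members' count in tumors against normal epithelium went to 3 with median scaling, 0 with the actin ratio as a covariate and 3 without the CD29HCD24L tumor arrays, alternatives chosen after seeing the data, and lay between 0 and 8 when a tumor or preparation was left out. Each other alternative left it at 4 or 5. For CD29HCD24H against CD29HCD24P it was 1 with no filter, 1 with the mean of probe sets, 2 with median scaling and 0 to 5 with an array left out. With the replicate block it was 1 for CD29HCD24H against CD29HCD24L. In the normal cells, which share a preparation number only, same-numbered arrays deviated together by r = 0.054, the block gave Pdk1 an adjusted p of 0.00311 by limma, and the count lay between 0 and 4 with an array left out. The block changed no other call of a member; among the other lists it moved some counts, such as that of the other hypoxia-response genes in normal cells to 14 from 13. The tumor-of-origin count lay between 2 and 4. The members' median turned to 0.10 for CD29 high against low with median scaling, from −0.015. With an array left out it lay between −0.19 and 0.073 against CD29LCD24L, −0.19 and 0.096 against CD29LCD24H, and −0.37 and 0.32 for the interaction. Single reversals, none past the threshold, were Ndrg1 (0.017) and Pgk1 (−0.061) in the normal cells with the mean of probe sets, Pgk1 there between −0.26 and 0.36 with an array left out, and Vegfa between −0.00052 and 0.85 in CD29HCD24H against CD29HCD24P. The causes were not tested. With so few arrays, and 2 preparations, a small or variable difference could not be detected, and dim members such as Ankrd37 were near the floor.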
